A study of Mus musculus with 18 samples.

Results

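The genes described here are 39 interferon-stimulated antiviral genes, taken by gene symbol from a table of 56953 gene IDs counted in mouse bone-marrow-derived macrophages. All 39 matched 1 ID each, and all 39 passed the filter on low counts that left 13068 genes for testing. The lowest count of any of them in any library was 19, so none owed its place to a single group. The macrophages were grown from bone marrow of C57BL/6J mice (B6) or of mice carrying the T169A change in RIPK1 (T169A), a kinase of inflammatory and cell death signalling. Cells of each genotype were left unstimulated, received lipopolysaccharide (LPS, a bacterial ligand of Toll-like receptor 4) for 2 hours, or received LPS with 5z7 for 2 hours, which gave 6 groups of 3 libraries. The labels leave the name 5z7 unexplained; it is commonly short for (5Z)-7-oxozeaenol, which inhibits TAK1, a kinase upstream of NF-kB and MAP kinases. They give no doses, no zygosity, sex or age of the mice and no group with 5z7 alone, so an action of 5z7 without LPS cannot be told apart from its action on the LPS response. All groups shared the culture in L929-conditioned medium, and the labels do not state if each library stands for its own animal. P-values therefore measure the spread between these libraries, which may be technical. Libraries are named by genotype, treatment and the running number of the deposited column. Gene counts do not show a single amino acid change, so the genotype rests on the labels.

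Type I interferon is made by macrophages after LPS through the adaptor TRIF and the factor IRF3, which switch on Ifnb1, and it acts back on the same cells through the receptor IFNAR. The receptor activates a complex with STAT2 and IRF9, which binds the interferon-stimulated response element (ISRE) in promoters, and several of these promoters can also be bound directly by IRF3. The gene products block viruses at many steps, by sensing foreign RNA, degrading or trapping it, arresting translation or holding virions at the cell surface.

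The promoters of 30 of the 39 genes were in a RefSeq table on build GRCm38.p6, and 7 of them are printed. They were chosen to show the core of the ISRE in some genes and its absence in 2, although most of the 30 had no match. Each line gives the 150 bases before the gene's start, read 5′ to 3′ on the gene's own strand, and capitals mark every match to the ISRE core GAAANNGAAA on either strand.
Ifit1 (chr19:34640739-34640888, plus strand): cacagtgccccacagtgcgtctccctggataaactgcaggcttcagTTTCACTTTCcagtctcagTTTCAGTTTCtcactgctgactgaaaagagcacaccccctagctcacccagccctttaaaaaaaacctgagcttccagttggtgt
Isg15 (chr4:156200819-156200968, minus strand): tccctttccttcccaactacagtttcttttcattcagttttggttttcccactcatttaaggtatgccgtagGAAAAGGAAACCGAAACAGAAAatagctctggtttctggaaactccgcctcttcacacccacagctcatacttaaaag
Rsad2 (chr12:26456453-26456602, minus strand): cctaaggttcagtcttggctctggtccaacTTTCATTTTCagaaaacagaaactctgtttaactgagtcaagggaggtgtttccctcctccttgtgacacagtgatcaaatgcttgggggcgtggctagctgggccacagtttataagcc
Ifi205 (chr1:174031756-174031905, minus strand): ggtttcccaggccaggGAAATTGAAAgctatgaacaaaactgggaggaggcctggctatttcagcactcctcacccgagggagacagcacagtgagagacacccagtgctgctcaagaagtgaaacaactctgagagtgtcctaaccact
Oas3 (chr5:120777660-120777809, minus strand): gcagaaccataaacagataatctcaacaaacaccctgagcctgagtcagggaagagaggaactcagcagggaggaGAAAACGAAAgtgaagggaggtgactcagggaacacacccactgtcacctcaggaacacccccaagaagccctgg
Oasl1 (chr5:114923090-114923239, plus strand): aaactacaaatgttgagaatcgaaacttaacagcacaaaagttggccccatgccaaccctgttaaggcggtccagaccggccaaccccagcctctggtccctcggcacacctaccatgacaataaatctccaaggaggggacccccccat
Trim21 (chr7:102565483-102565632, minus strand): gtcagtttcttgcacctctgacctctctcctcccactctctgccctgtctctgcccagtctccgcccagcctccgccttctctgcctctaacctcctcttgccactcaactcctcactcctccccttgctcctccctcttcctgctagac
Ifit1, Rsad2, Ifi205, Isg15 and Oas3 held the core, as 2 separate matches in Ifit1 and as 3 overlapping matches in Isg15. Oasl1 and Trim21 had no match in the 250 bases searched, which says only that these letters are not in that window. Over the 250 bases, 12 of the 30 genes (40.0%) had the core, against 3.46% of 27025 genes of the same table. The STAT element TTCNNNGAA was found in 5 of the 30 (16.7%, against 8.13% of all genes) and the AP-1 element TGANTCA in 6 (20.0%, against 7.82%). The NF-kB consensus was found in 2 (6.7%, against 4.46%). All motifs were searched on both strands, and matches are descriptions of letters, not of bound sites.

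Libraries held 14.6 to 30.4 M counts, and 3 counts, used as the limit of detection for counting error, corresponded to 0.0886 to 0.233 CPM (counts per 1 M counts). The library total was first scaled by the trimmed mean of M-values (TMM). The summed CPM of 8 macrophage markers was 31660 to 44590 in every library, while 6 markers of plasmacytoid dendritic cells, a professional source of type I interferon, summed to 1.09 to 3.63 CPM. T and NK cell markers summed to 0 to 0.194 CPM and neutrophil markers to 23.2 to 55.8 CPM. In bulk RNA, fewer cells responding and less RNA per cell cannot be told apart. The library named T169A LPS 11 and its neighbours by number, T169A 10 and 12, had higher levels of most of these genes than the other libraries of their groups. In several libraries, levels followed transcript length, most strongly in the unstimulated B6 library 7. Both are described with the results they touch.

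LPS raised all 39 genes in both genotypes, with the call for Bst2 in B6 depending on the settings given below for that gene. The median log2 fold change was 2.78 in B6 and 2.88 in T169A, against -0.07 and -0.03 over all genes tested. All 39 were called higher (adjusted p under 0.05, edgeR quasi-likelihood test with Benjamini-Hochberg adjustment), where 29.6% of all genes were called higher in B6 and 30.3% in T169A. The sum over the 39 genes rose from 1919 to 2133 CPM in unstimulated B6 libraries to 21890 to 24130 CPM with LPS. In the same B6 libraries the neutrophil markers went from 24.15 to 26.68 CPM to 34.04 to 43.07 CPM, and 5 conventional dendritic cell markers from 0.572 to 0.592 CPM (3 of 5 with counts) to 2.21 to 2.49 CPM (5 of 5). Their part in the LPS response was not tested.

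**Figure D1:**
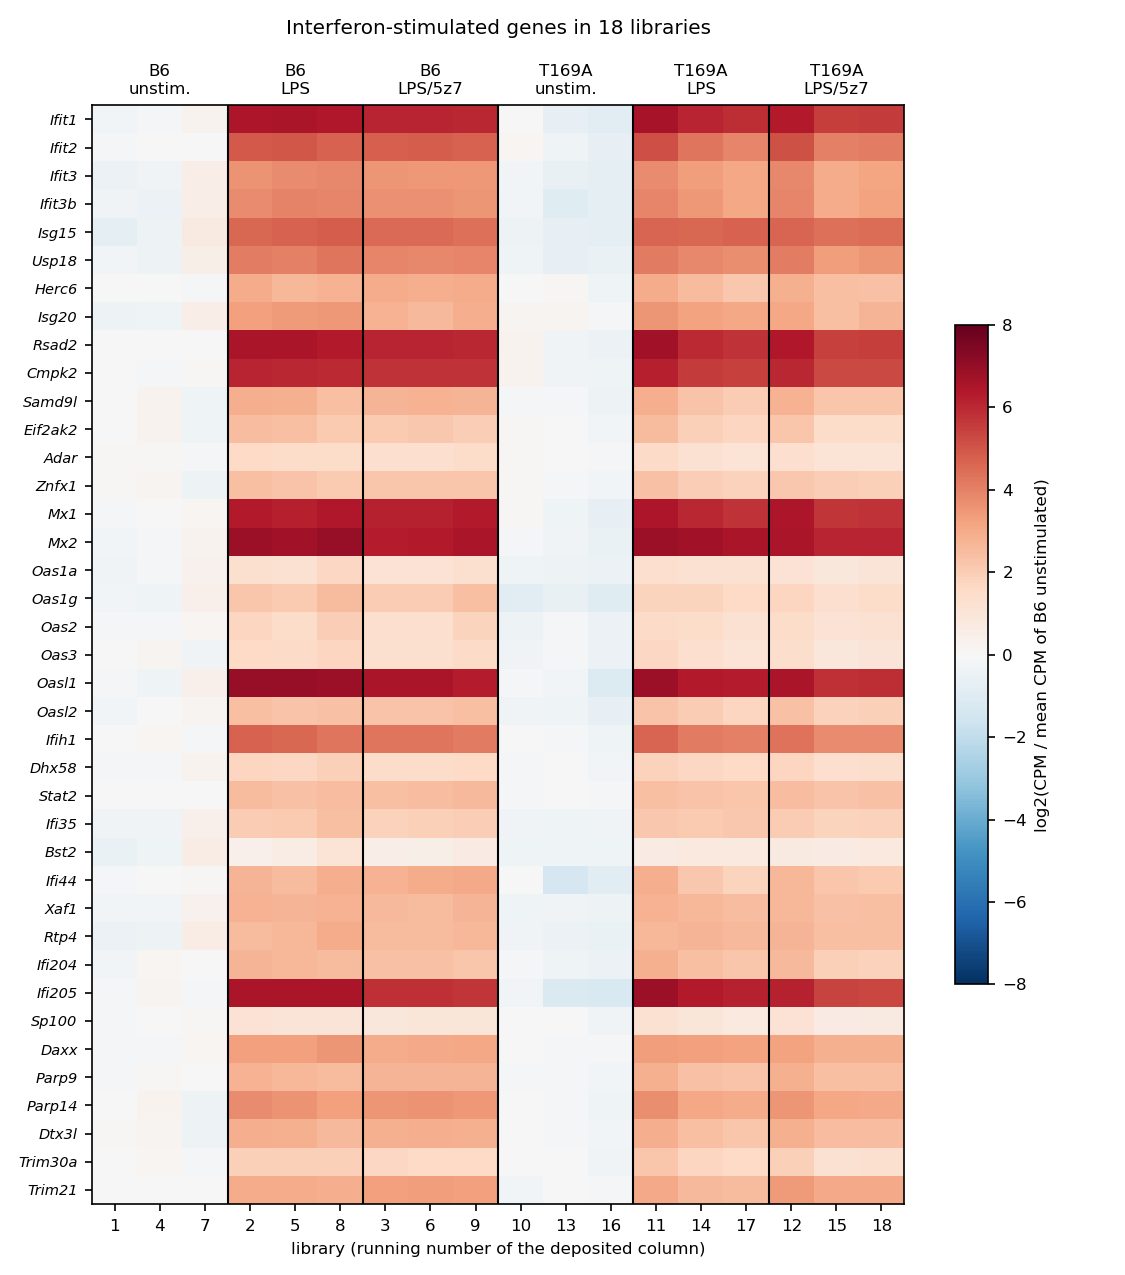
Level of the 39 genes (rows, ordered by role) in the 18 libraries (columns, 3 per group, with running numbers) as log2 of CPM over the mean CPM of the 3 unstimulated B6 libraries. Columns with LPS or LPS/5z7 are red for nearly every gene, darkest for Mx2, Oasl1, Ifi205, Rsad2 and Ifit1, and palest for Bst2 and Sp100.

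Of the genes for the RNA-binding IFIT proteins, which hold back foreign RNA from translation, Ifit1 had the largest response and was among the strongest responders. Ifit1 stood at 17.7, 18.8 and 24.4 CPM in the unstimulated B6 libraries 1, 4 and 7 and at 1790, 1853 and 1724 CPM in the LPS libraries 2, 5 and 8. In T169A it went from 20.1, 13.1 and 11.5 CPM (libraries 10, 13 and 16) to 1996, 1387 and 1239 CPM (libraries 11, 14 and 17). The groups did not come near each other in either genotype, and the log2 fold change was 6.47 ± 0.29 (SE) in B6 and 6.69 ± 0.29 in T169A. Ifit2 rose by 4.88 ± 0.34 and 4.77 ± 0.34 on the log2 scale. Ifit3 and Ifit3b have transcripts that are 97.8% identical over 1700 bases, so their separate counts are uncertain. Ifit3 stood at 19.5, 22.6 and 39.3 CPM in unstimulated B6 libraries and at 334, 377 and 390 CPM with LPS. Ifit3b stood at 4.78, 4.20 and 8.18 CPM and at 78.2, 88.1 and 85.3 CPM in the same libraries. Both were higher in every LPS library than in any unstimulated library, by 3.76 ± 0.27 and 3.91 ± 0.29 (log2, B6). In T169A, Ifit3 went from 23.2, 17.8 and 16.6 to 374, 271 and 233 CPM and Ifit3b from 4.86, 2.87 and 3.30 to 87.4, 62.2 and 49.5 CPM.

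The oligoadenylate synthetase family, which makes a second messenger when it meets double-stranded RNA, was split in its response. Oasl1, a family member without synthetase activity, had the largest fold change of the 39 in B6. It went from 2.90, 2.60 and 4.36 CPM to 412, 407 and 370 CPM in B6, a log2 fold change of 6.95 ± 0.28, and from 2.89, 2.83 and 1.55 to 374, 263 and 256 CPM in T169A, 6.94 ± 0.28. The synthetases proper changed less, with log2 fold changes in B6 of 1.40 ± 0.14 for Oas1a, 1.74 ± 0.16 for Oas2, 1.63 ± 0.16 for Oas3 and 2.32 ± 0.19 for Oas1g. Oas1a was already at 48.4, 53.6 and 74.9 CPM in unstimulated B6 libraries and reached 145, 138 and 183 CPM. In T169A it went from 46.1, 44.7 and 42.4 to 147, 139 and 140 CPM (1.68 ± 0.14). Oas1a and Oas1g are 97.6% identical over 1861 bases, and their counts may be exchanged.

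The RNAs of the genes for the MX proteins, dynamin-like GTPases that trap viral components, rose together. Whether these mice make working MX proteins from them was not tested. Mx2 went from 4.13, 4.31 and 5.81 CPM to 537, 498 and 601 CPM in B6, and from 4.25, 3.93 and 3.35 to 540, 496 and 438 CPM in T169A. Its log2 fold change was 6.86 ± 0.19 and 7.00 ± 0.19, with an SE below that of most genes of similar response. Mx1 rose from 14.8, 16.3 and 18.2 to 1327, 1207 and 1383 CPM in B6 (6.31 ± 0.25). In T169A it rose from 17.2, 12.8 and 10.5 to 1436, 1059 and 901 CPM (6.39 ± 0.25).

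Rsad2 encodes viperin, a radical enzyme that makes a chain-terminating nucleotide, and Cmpk2 the mitochondrial nucleotide kinase that supplies it. Rsad2 had the highest level per length of the 39 genes after LPS in B6, 866 ± 65.2 CPM per kb of its longest transcript (SD, n = 3), followed by Isg15 at 692 ± 65.2 and Ifit1 at 674 ± 24.4. Isg15 and Ifit1 differed by less than either SD and are not ordered by these data. In counts, Rsad2 went from 39.5, 41.2 and 41.7 to 3807, 3762 and 3313 CPM in B6. In T169A it went from 49.8, 32.9 and 30.1 to 4232, 2600 and 2226 CPM. Library 11 exceeded every B6 library, and the other T169A libraries were below all of them. Cmpk2 rose by 6.04 ± 0.25 (B6) and 5.89 ± 0.25 (T169A) on the log2 scale.

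The ISG15 system tags proteins with a ubiquitin-like modifier. Isg15 stood at 11.6, 15.3 and 33.0 CPM in unstimulated B6 libraries and at 473, 527 and 571 CPM with LPS. In T169A the values were 15.3, 12.7 and 11.6 and then 498, 474 and 533 CPM. The log2 fold change was 4.72 ± 0.28 and 5.25 ± 0.29. Usp18, which removes ISG15 and restrains the receptor, rose by 4.16 ± 0.22 and 4.42 ± 0.23, and Herc6, the ligase, by 2.80 ± 0.18 and 2.66 ± 0.18. Herc6 was one of the 3 lowest genes per length after LPS in B6, at 22.9 ± 2.62 CPM per kb, above Isg20 at 19.7 ± 1.16 and Ifi44 at 3.09 ± 0.39. Ifi44 was the lowest per length in every group. In counts it was at 1.80, 1.86 and 2.04 CPM unstimulated and 12.7, 10.9 and 14.1 CPM with LPS in B6. In T169A it stood at 1.86, 0.746 and 1.06 CPM and then 14.5, 8.30 and 6.60 CPM. Herc6 stood at 16.1, 16.2 and 14.5 CPM and then 123, 98.7 and 105 CPM in B6, and at 16.2, 16.5 and 12.1 and then 121, 91.4 and 69.6 CPM in T169A.

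Ifih1 (MDA5) and Dhx58 (LGP2), sensors of double-stranded RNA, rose by 4.53 ± 0.20 and 1.77 ± 0.13 in B6 (log2). Ifi205, a member of the DNA-binding PYHIN family, went from 5.15, 6.41 and 5.27 to 526, 528 and 508 CPM in B6 (6.53 ± 0.28). In T169A it went from 4.74, 2.51 and 2.41 to 632, 456 and 398 CPM (7.27 ± 0.30). Its transcript is 97.4% identical to that of Ifi211 over 1101 bases and 93.75% identical to that of Mndal over 1072 bases. Ifi204 is 96.9% identical to Ifi211 over 1363 bases, so reads could be split among these genes. Ifi204, at 111, 140 and 133 CPM unstimulated and 833, 805 and 735 CPM with LPS in B6, rose by 2.63 ± 0.19. In T169A it went from 123, 99.5 and 93.5 to 908, 665 and 603 CPM (2.79 ± 0.19). Daxx, a histone chaperone of nuclear bodies, rose by 3.39 ± 0.12 in B6.

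The smallest responses in B6 were those of Bst2, Sp100, Adar and Oas1a, and in T169A those of Bst2, Sp100, Adar and Oas3 (1.64 ± 0.16). Bst2 encodes tetherin, which holds virions on the membrane, and it was the most abundant of the 39 per length before stimulation. It stood at 74.0, 84.6 and 162 CPM in the unstimulated B6 libraries and at 145, 159 and 225 CPM with LPS. The groups overlapped: the unstimulated library 7 was above 2 of the LPS libraries. The log2 fold change was 0.72 ± 0.21 (adjusted p = 0.0072) in B6, and 1.15 without library 7. The call in B6 was lost without LPS library 8 (0.51, adjusted p = 0.0501), with the 2 groups fitted alone (0.76, adjusted p = 0.0853) and with scaling by library size alone (0.12, adjusted p = 0.60). In T169A it stood at 82.7, 84.0 and 85.7 and then 167, 182 and 187 CPM, with no overlap and a log2 fold change of 1.08 ± 0.21. Sp100, the scaffold of nuclear bodies, was at 75.3, 82.4 and 88.5 and then 179, 171 and 170 CPM in B6 (1.08 ± 0.13). In T169A it was at 80.3, 79.4 and 68.3 and then 195, 157 and 138 CPM. Adar, which edits adenosine in double-stranded RNA, was at 95.5, 98.1 and 80.5 and then 270, 249 and 257 CPM in B6 (1.502 ± 0.116). In T169A it was at 96.5, 91.7 and 84.3 and then 267, 217 and 193 CPM (1.31 ± 0.12). In B6, 38 of 39 genes did not overlap between LPS and unstimulated libraries (29.7% of all genes were so, higher with LPS), and in T169A all 39 (33.4% of all genes).

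Among the remaining genes, the log2 fold change in B6 was 2.33 ± 0.23 for Eif2ak2 (PKR, which stops translation), 2.74 ± 0.22 for Samd9l and 2.28 ± 0.16 for Znfx1. The ADP-ribosyltransferases Parp9 and Parp14 rose by 2.67 ± 0.14 and 3.57 ± 0.23, and Dtx3l, the ubiquitin ligase partner of Parp9, by 2.79 ± 0.19. Parp9 and Dtx3l overlap by 458 exonic bases on opposite strands, and since no strand setting is stated for the counting, part of their counts could be shared. Stat2, the transducer that is itself an interferon target, rose by 2.46 ± 0.09. Scaling by library size alone would lower every LPS value, since it moved the median of all genes by -0.59 in B6 and -0.58 in T169A (log2). The 12 genes with the ISRE core had a median LPS log2 fold change of 3.11 in B6, and the 18 without it 2.78, with ranges of 0.72 to 6.53 and 1.08 to 6.95.

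Adding 5z7 to LPS gave few calls among these genes, though most point estimates were below 0. A fit with blocks of consecutive running numbers, given in the closing section, called more of them lower. Without such blocks, 4 of 39 were called lower than with LPS alone in B6 (Ifi205, Isg20, Mx2 and Daxx) and none higher. Over all genes, 6.79% were called lower and 7.03% higher. In T169A, 2 were called lower (Ifi205 and Mx2, 6.53% of all genes) and 1 higher (Trim21, 6.5% of all genes). The median log2 fold change was -0.21 in B6 and -0.14 in T169A, against 0.02 in both over all genes, and 31 of 39 genes were negative in B6 and 34 in T169A (46.9% and 47.5% of all genes). With LPS/5z7, all 39 were still called higher than in unstimulated cells, with medians of 2.82 and 2.73 (27.6% and 28.1% of all genes were called higher). The exception is again Bst2 in B6, whose call for LPS/5z7 was lost with scaling by library size alone (0.12), with no filter (0.52), with the groups fitted alone (0.57) and without library 1 (0.35), 3 (0.57), 4 (0.41), 6 (0.56) or 9 (0.49).

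**Figure D2:**
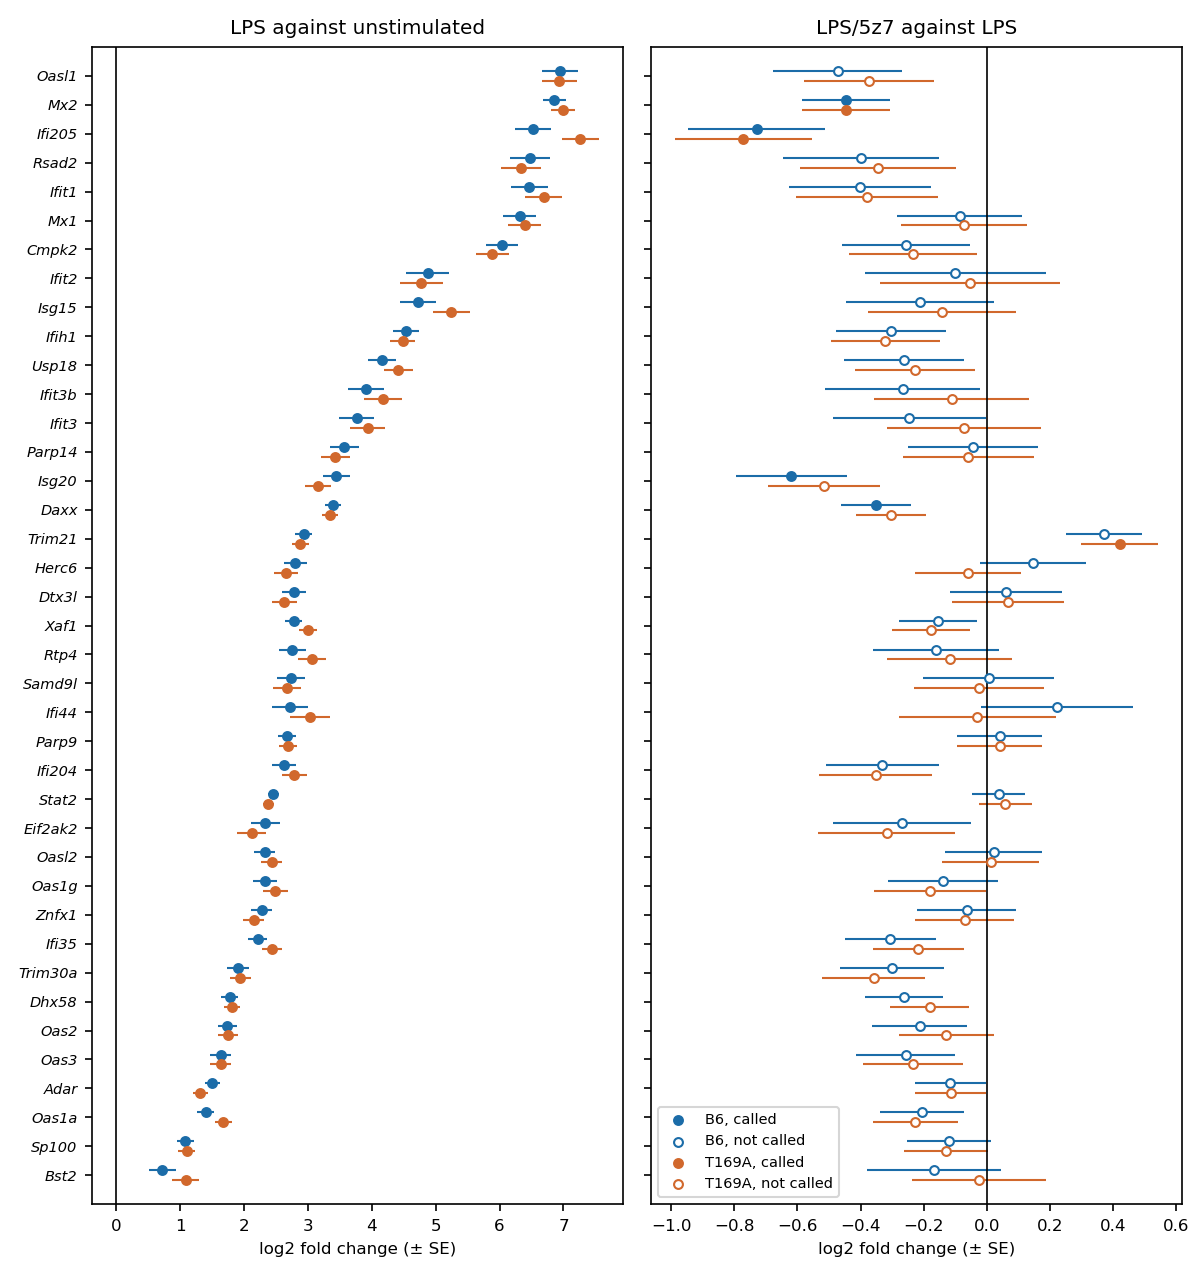
Log2 fold change (± SE) of each gene for LPS against unstimulated (left) and LPS/5z7 against LPS (right, a narrower axis) in B6 and T169A. Filled points were called at an adjusted p under 0.05. The left values are all positive, from 0.72 (Bst2, B6) to 7.27 (Ifi205, T169A), while the right values lie between -0.77 and 0.42.

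Ifi205 had the largest fall. It stood at 526, 528 and 508 CPM with LPS and at 325, 316 and 301 CPM with LPS/5z7 in the B6 libraries 3, 6 and 9, a log2 fold change of -0.73 ± 0.22 (adjusted p = 0.033). In T169A it stood at 402, 238 and 231 CPM in the LPS/5z7 libraries 12, 15 and 18, against 632, 456 and 398 with LPS, -0.77 ± 0.22 (adjusted p = 0.026). The B6 groups did not overlap, and in T169A the highest LPS/5z7 library just passed the lowest LPS library. The Ifi205 call was lost with no filter in both genotypes. In B6 it was also lost with scaling by library size alone and whichever library of these groups was left out. In T169A it was lost with the groups fitted alone and without library 11, 15 or 18. Isg20, an RNA exonuclease, stood at 20.0, 21.6 and 22.5 CPM and then 14.0, 12.4 and 15.2 CPM in B6 (-0.62 ± 0.18, adjusted p = 0.028). In T169A the values were 23.0, 18.8 and 17.5 and then 17.3, 10.7 and 13.5 CPM (-0.51 ± 0.18, adjusted p = 0.066), without overlap. Mx2 was lower by the same amount in both genotypes, at 375, 388 and 437 CPM in B6 and 443, 321 and 318 CPM in T169A with LPS/5z7 (-0.45 ± 0.14 in each, adjusted p = 0.041 and 0.043). In T169A, library 12 passed the lowest LPS library. Mx1, its neighbour in function, was at -0.09 ± 0.20 and -0.07 ± 0.20. Daxx fell from 494, 491 and 585 to 394, 403 and 435 CPM in B6 (-0.35 ± 0.11, adjusted p = 0.044). In T169A it stood at 500, 482 and 463 and then 461, 355 and 354 CPM (-0.30 ± 0.11, adjusted p = 0.083).

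The strongest responders to LPS stayed far above unstimulated levels with 5z7, but their group means were below those with LPS alone. Of them, Ifi205 and Mx2, given above, were called lower, while Rsad2, Ifit1 and Oasl1 were not called in the fit of all 6 groups. Rsad2 stood at 2783, 2828 and 2637 CPM in B6 and 3479, 1781 and 1879 CPM in T169A with LPS/5z7, a log2 fold change against LPS of -0.40 ± 0.25 and -0.34 ± 0.25 (adjusted p = 0.35 and 0.46). Ifit1 stood at 1381, 1379 and 1301 CPM and 1658, 932 and 965 CPM (-0.40 ± 0.22 and -0.38 ± 0.22, adjusted p = 0.29 and 0.34). The B6 libraries of both genes were below every B6 LPS library without reaching the threshold, and the T169A libraries overlapped. Between LPS and LPS/5z7 libraries of consecutive running numbers, both genes were lower with 5z7 in every T169A pair. A fit with blocks of such numbers called both genes lower in both genotypes, as given in the closing section. Oasl1 stood at 306, 300 and 252 CPM in B6 and 304, 187 and 198 CPM in T169A (-0.47 ± 0.20 and -0.37 ± 0.20). Isg15 stood at 469, 463 and 423 CPM and 499, 416 and 448 CPM (-0.21 ± 0.24 and -0.14 ± 0.24). This contrast and the LPS contrast share the LPS libraries.

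Trim21, a cytosolic antibody receptor and ubiquitin ligase, moved the other way. In B6 it stood at 170, 168 and 160 CPM with LPS and at 214, 220 and 212 CPM with LPS/5z7, without overlap (0.37 ± 0.12, adjusted p = 0.051). In T169A it stood at 180, 132 and 123 and then at 229, 176 and 178 CPM (0.42 ± 0.12, adjusted p = 0.029), with the LPS library 11 above 2 of the LPS/5z7 libraries. The promoter printed for Trim21 is one without the ISRE core. Isg20 and Daxx, called lower in B6, also had no core in the bases searched, while Ifi205 had it and Mx2 had no promoter entry. Whether the core goes with the change with 5z7 was not tested. Over the genes with and without the core, the median with 5z7 was -0.25 and -0.12 in B6 and -0.20 and -0.12 in T169A.

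By group, the IFIT genes had a median of -0.26 in B6 and -0.09 in T169A with 0 of 4 called, and the OAS and OASL genes -0.21 and -0.20 with 0 of 6 called. The ISG15 system had -0.21 and -0.14 with 0 of 3 called, and the PARP and DTX genes 0.04 in both with 0 of 3 called. The 95% interval of the change was -0.92 to 0.12 for Rsad2 and -0.71 to 0.28 for Isg15 in B6. It rests on a spread shared by all 6 groups, and a change of up to that size was not resolved by this fit. With the B6 groups fitted alone, edgeR called Rsad2 lower (-0.41, adjusted p = 0.0045) and Ifit1 lower (-0.41, adjusted p = 0.0023), but not Isg15. Counted by libraries that do not overlap, 19 genes were lower with 5z7 in B6 (17% of all genes) and Trim21 higher (18.5%), and in T169A 4 were lower (14.2%) and 0 higher (15.3%).

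These counts moved with the settings. Fitting the 2 groups alone called 13 genes lower in B6, among them Rsad2, Ifit1 and Oasl1, and 0 in T169A. Of all genes, 11% and 6.86% were then called lower. Leaving out library 3, 6 or 8 left 0 called lower in B6, library 5 left 1, and library 2 or 9 left 2. In T169A, leaving out library 11, 15 or 18 left 0 called lower and library 14 left 1. Without library 12 it was 9, where 839 of all 13330 genes tested were called lower. The Trim21 call was lost without library 12, 14 or 17. Scaling by library size alone left 0 in B6 and 1 in T169A (Ifi205), since it moved the median of all genes by 0.16 (log2) in both genotypes.

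The difference of the 5z7 effect between genotypes was called for none of the 39 (0% of all genes, and an unadjusted p under 0.05 for 0 of 39 in edgeR and DESeq2). It was -0.04 (95% interval -0.69 to 0.60) for Ifi205, 0.00 (-0.42 to 0.42) for Mx2 and 0.05 (-0.31 to 0.41) for Trim21.

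Ifnb1, the ligand of the pathway, fell with 5z7 in both genotypes. It held 3, 1 and 1 counts in the unstimulated B6 libraries and 2, 0 and 0 in T169A, at or under the limit of 3 counts, so no fold change is given for LPS. With LPS it stood at 56.0, 62.8 and 60.0 CPM in B6 and 58.7, 53.2 and 45.2 CPM in T169A. With LPS/5z7 it stood at 14.8, 13.9 and 10.5 CPM and 12.1, 7.63 and 9.37 CPM, every library below every LPS library. The log2 fold change for 5z7 was -2.19 ± 0.17 (adjusted p = 2e-07) in B6 and -2.42 ± 0.18 (adjusted p = 7.1e-08) in T169A, larger than for any of the 39 genes. Of 18 interferon ligand genes listed, Ifnb1 was the only one with enough counts to be tested.

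**Figure D3:**
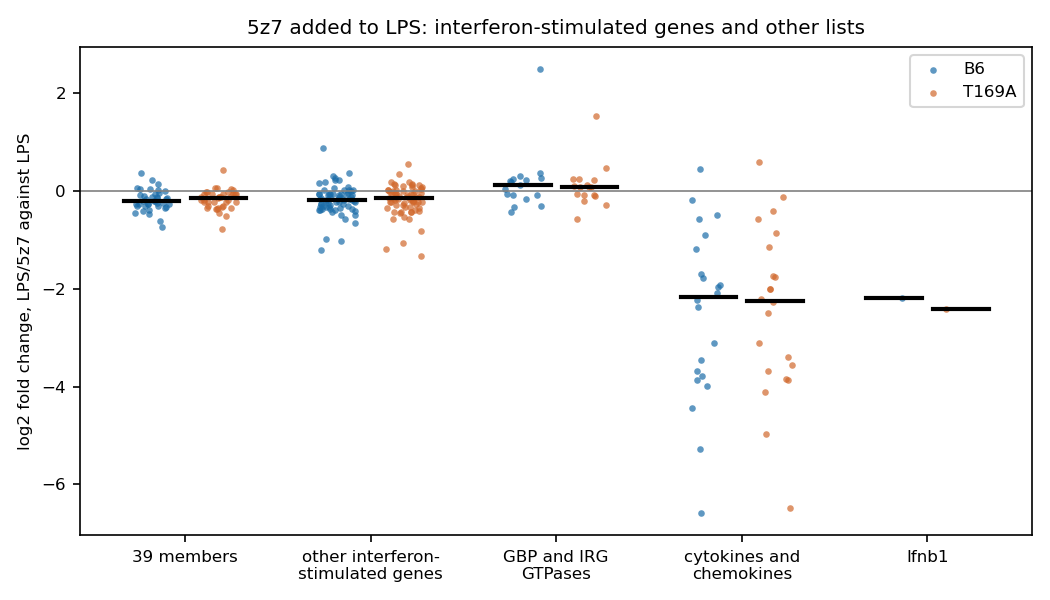
Log2 fold change of single genes for LPS/5z7 against LPS in B6 and T169A, for the 39 genes, other interferon-stimulated genes, the GBP and IRG GTPases, inflammatory cytokines and chemokines, and Ifnb1; black bars are medians. The cytokines spread to below -6 with medians of -2.17 and -2.24, Ifnb1 is at -2.19 and -2.42, and the interferon-stimulated genes lie near 0.

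The genes of the receptor and its transducers rose with LPS, 8 of 8 in both genotypes. The receptor chain Ifnar1 rose by 1.18 ± 0.14 in B6 and 1.22 ± 0.14 in T169A (log2), Ifnar2 by 1.08 ± 0.08 and 1.21 ± 0.08, and Irf9 by 1.28 ± 0.07 and 1.21 ± 0.07. With 5z7, 4 of the 8 were called lower in B6 (Ifnar2 -0.27 ± 0.08, Irf9 -0.22 ± 0.07, Stat3 -0.40 ± 0.12 and Stat5a -0.29 ± 0.08) and Tyk2 higher (0.35 ± 0.10). In T169A, Stat3 and Stat5a were called lower. Irf7, which amplifies the interferon response, rose by 2.66 ± 0.19 and 3.08 ± 0.20 with LPS and was at -0.25 ± 0.18 and -0.27 ± 0.18 with 5z7. Irf3, the factor that is activated without new synthesis, was at 0.20 ± 0.19 (adjusted p = 0.37) in B6 and 0.51 ± 0.19 (adjusted p = 0.025) in T169A with LPS. Irf4 was the one regulatory factor of 7 tested that 5z7 lowered (-1.64 ± 0.33 and -1.90 ± 0.32).

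On the route from the receptor TLR4 to Ifnb1, 9 genes were tested, and 5z7 lowered Cd14, the LPS co-receptor (-0.72 ± 0.12 and -0.69 ± 0.12), and Ticam1, which encodes TRIF (-0.77 ± 0.09 and -0.65 ± 0.09). Ticam2, which encodes the bridging adaptor TRAM, was higher (1.04 ± 0.09 and 1.12 ± 0.09). Among the brakes on the pathway, Socs1 (-0.79 ± 0.18 and -1.06 ± 0.19), Socs3 (-1.58 ± 0.28 and -1.56 ± 0.28) and Ptpn2 (-0.36 ± 0.09 and -0.35 ± 0.09) were lower and Ptpn6 (0.32 ± 0.10 and 0.38 ± 0.10) higher. Of 9 genes of nucleic acid sensing, Tlr9 was higher (1.20 ± 0.24 and 1.18 ± 0.24) and none lower.

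Of 68 further interferon-stimulated genes tested, LPS raised 59 and lowered 1 in B6 and raised 63 and lowered 1 in T169A. With 5z7, 5 were called lower in each genotype and none higher, with medians of -0.18 and -0.15. In B6 these were Ifi211 (-0.39 ± 0.13), Slfn2 (-0.38 ± 0.11), Slfn4 (-1.20 ± 0.27), Trim30c (-1.03 ± 0.24) and Cxcl11 (-0.98 ± 0.16). In T169A they were Ifi211 (-0.44 ± 0.13), Slfn4 (-1.33 ± 0.27), Trim30b (-0.82 ± 0.21), Trim30c (-1.18 ± 0.24) and Cxcl11 (-1.06 ± 0.16). The 17 GBP and IRG GTPases tested had medians of 0.11 and 0.08 with 5z7, with 1 called higher in B6 (Gbp11, 2.49 ± 0.50) and none in T169A. Of 22 inflammatory cytokines and chemokines, 18 were called lower in each genotype, with medians of -2.17 and -2.24. These lists share the LPS libraries and are set side by side as values; their difference was not tested.

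None of the 39 genes was called different between T169A and B6 macrophages in any condition, and most point estimates were slightly lower in T169A. The median log2 difference, T169A minus B6, was -0.26 unstimulated, -0.21 with LPS and -0.19 with LPS/5z7, against medians within 0.01 of 0 over all genes. The values were negative for 38, 38 and 36 of 39 genes (51.1%, 49.8% and 49.4% of all genes). Single libraries moved these medians by more than 1.5 times. The unstimulated median was -0.17 without library 7 and -0.15 without library 16. With LPS it was -0.39 without library 11 and -0.10 without library 17, and with LPS/5z7 it was -0.39 without library 12, -0.08 without library 15 and -0.09 without library 18. The summed CPM of 6 neutrophil markers, all 6 with counts, was 24.15 to 26.68 in unstimulated B6 libraries and 30.75 to 39.24 in T169A, without overlap, while the stimulated groups overlapped. The 5 fibroblast markers, all with counts, summed to 3.48 to 5.21 CPM in B6 and 5.24 to 12.22 CPM in T169A with LPS, and overlapped in the other conditions. Their part in the genotype values was not tested. The 0 calls stand beside 0.214%, 0.222% and 0.161% of all genes called in either direction. An unadjusted p under 0.05 was found for 7, 1 and 3 of 39 genes with edgeR and for 10, 3 and 3 with DESeq2, and DESeq2 called Oas1g in unstimulated cells.

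Oas1g was the gene furthest from 0 in the stimulated groups. It stood at 11.97, 10.75 and 18.56 CPM in unstimulated B6 libraries and at 7.54, 9.31 and 7.18 CPM in T169A. With LPS it was at 64.8, 59.5 and 80.3 against 47.3, 46.9 and 40.7 CPM, and with LPS/5z7 at 55.1, 57.2 and 73.4 against 45.9, 35.1 and 38.0 CPM. The T169A libraries were below every B6 library in each condition, and the log2 difference was -0.76 ± 0.19, -0.60 ± 0.18 and -0.64 ± 0.18, with adjusted p of 0.23, 0.41 and 0.36. Fitting the LPS/5z7 groups alone called it. Oas1a, with which it may exchange reads, was at -0.41 ± 0.14, -0.13 ± 0.13 and -0.15 ± 0.13. Libraries did not overlap, lower in T169A, for 8, 1 and 4 of 39 genes (4.12%, 5.22% and 12.3% of all genes), and higher for 0, 0 and 1 (4.36%, 5.26% and 10.8% of all genes), the last being Bst2 with LPS/5z7. For Rsad2 the 95% interval of the difference with LPS was -0.79 to 0.26, so a difference within those bounds was not resolved.

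After stimulation the 3 T169A libraries spread more widely than the B6 libraries, and most of the 39 genes were high or low in the same libraries. The coefficient of variation over the 3 libraries had a median over genes of 8.20% in B6 and 21.04% in T169A with LPS, and of 4.73% and 19.8% with LPS/5z7. In unstimulated cells the order was the other way, 17.6% in B6 and 11.9% in T169A. Library 11 was the highest of its group for 35 of 39 genes, library 12 for 38 and the unstimulated library 10 for 29. The summed CPM of the 39 genes was 25400 in library 11, against 17970 and 16040 in libraries 14 and 17, and 22530 in library 12, against 14530 and 14920 in libraries 15 and 18. B6 LPS libraries held 21890 to 24130 CPM, inside the T169A range. Library 17 was lowest for 35 genes, library 16 for 32 and library 15 for 29.

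**Figure D4:**
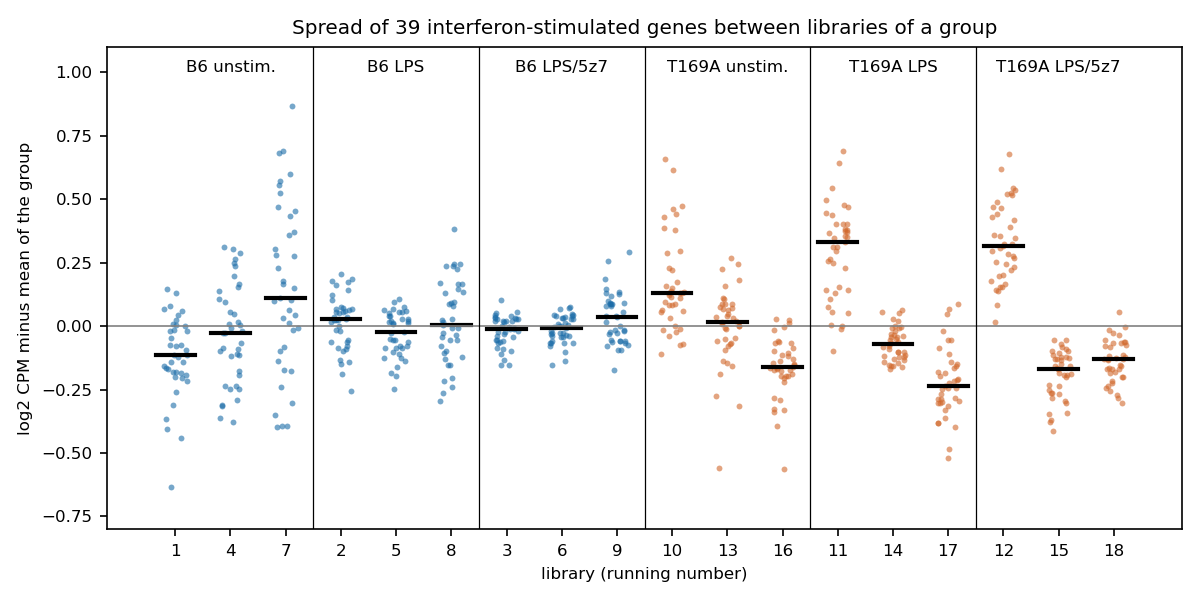
Deviation of each of the 39 genes (points) from its group's mean log2 CPM in each library, with the median over the genes as a black bar; B6 in blue, T169A in orange. Medians of libraries 10, 11 and 12 are 0.13, 0.33 and 0.31, and those of the other stimulated T169A libraries are below 0, while stimulated B6 medians stay within 0.04 of 0.

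Without libraries 10, 11 and 12, a set chosen after seeing that these genes were high in them, which by itself lowers T169A, the medians of T169A minus B6 were -0.32, -0.38 and -0.39. Then 2 genes were called lower unstimulated (Ifi205 and Ifit1), 3 with LPS (Rsad2, Cmpk2 and Ifit2) and 4 with LPS/5z7 (Ifi44, Rsad2, Cmpk2 and Ifit2). Over all 13243 genes tested, 42, 28 and 23 were called lower. What sets these 3 libraries apart was not tested. The LPS effect itself differed by genotype for none of the 39 genes (0% of all genes). The closest was Ifi205, whose LPS effect was larger in T169A by 0.74 (95% interval 0.01 to 1.47, adjusted p = 0.92), the only one of 39 with an unadjusted p under 0.05. Its mean level with LPS was not higher in T169A (495 CPM, against 521 CPM in B6). Unstimulated, its mean was 3.22 CPM in T169A and 5.61 CPM in B6.

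Differences between libraries followed transcript length in the unstimulated B6 group, and in part also after LPS. In library 7, the shallowest, the 13 shortest transcripts (756 to 2412 bases) had a median deviation of 0.52 from the group mean (log2) and the 13 longest (3961 to 7417 bases) of -0.18. Across the 39 genes, deviation and log2 length correlated at r = -0.917 in library 7, against 0.908 in library 1 and 0.802 in library 4. These are descriptions across genes of 3 libraries that share one mean, so they carry no p. Over 12811 genes the same values were -0.547, 0.419 and 0.473. With LPS, r across the 39 genes was 0.855, 0.185 and -0.671 in B6 libraries 2, 5 and 8. It was 0.598, -0.353 and -0.626 in T169A libraries 11, 14 and 17. In library 11 the median deviation was 0.14 for the 13 shortest and 0.40 for the 13 longest transcripts. In the other groups r lay between -0.499 and 0.249. Isg15, one of the shortest, stood at 33.0 CPM in library 7 and at 11.6 and 15.3 CPM in libraries 1 and 4. The part of transcript length in differences between groups was not tested, and all 39 genes were called higher with LPS in B6 without library 7.

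**Figure D5:**
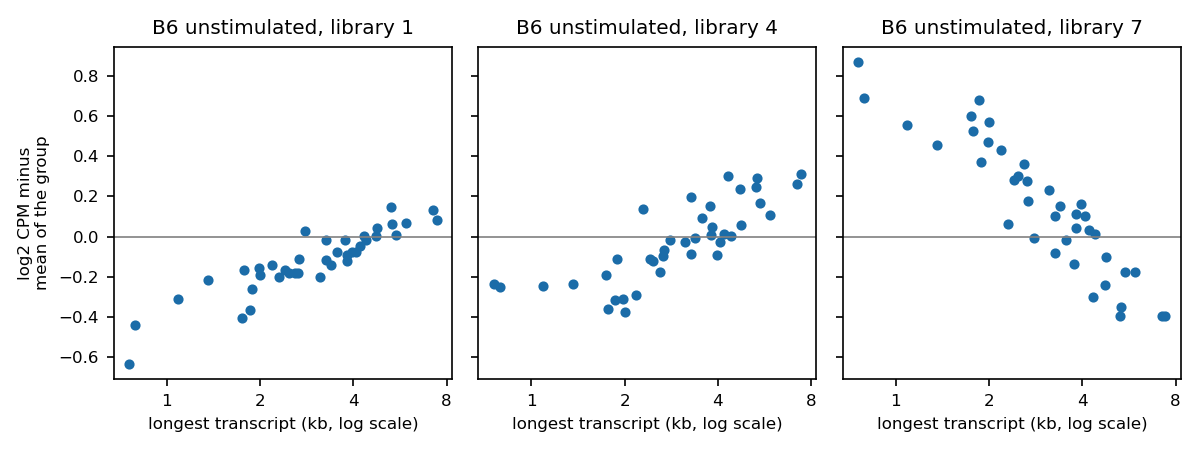
Deviation of each of the 39 genes from the mean log2 CPM of the unstimulated B6 group against the length of its longest transcript (log scale), in libraries 1, 4 and 7. Points rise with length in libraries 1 and 4 and fall with length in library 7, from 0.87 to -0.40.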

How the data were processed

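RNA of 18 macrophage libraries in 6 groups of 3 was sequenced from directional TruSeq libraries, per the labels' protocols. The deposited values are raw gene counts. The authors used Trim Galore, STAR and featureCounts with GRCm39, per the submitters' processing notes; versions, strand setting and the handling of reads that match several genes are not given in the sources used here. Columns carry a group and a running number, and were tied to groups, not to single samples; 0 columns were left out. Symbols, lengths and exon overlaps came from GENCODE M21 on GRCm38 (91.4% of IDs matched), and promoters from RefSeq on GRCm38.p6. Near-identical transcripts were found with blastn 2.17.0 (at least 90% identity over at least 50% of the transcript).

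Counts were filtered with filterByExpr (minimum count 10) and tested with edgeR 4.0.16 in R 4.3.3: TMM scaling, a robust quasi-likelihood fit of 6 group means over 18 libraries with 12 residual degrees of freedom, and Benjamini-Hochberg adjustment over 13068 genes with a threshold of 0.05. SEs are the absolute log2 fold change over the square root of F. CPM per kb uses the longest transcript. The tests were tried on counts simulated from the fitted means and spreads of the same model. Those counts held no library sets or length trends, so they cannot show how the tests behave where these occur. Pairs of libraries of a group differed by 2.89 to 101 times counting variance (chi-square over degrees of freedom), so no pair agreed within sampling noise. Intervals cover the spread between libraries.

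Alternatives were DESeq2 1.42.0, other scalings, filters and fits, a block of running numbers and each library left out; leaving out T169A libraries 10, 11 and 12 was added after the data were seen. The genes and lists were chosen with earlier results of these data known. Values in every library are given for the genes highest and lowest per length, those with the largest and smallest LPS change, those called for 5z7 or genotype, and near-identical pairs; other pathway genes are named where called with 5z7, and core pathway genes always, except those not reported here. Figures used Python 3.11.15 and matplotlib 3.10.9.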

Additional observations from a re-analysis of the deposited data

How the results depend on the processing

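All 39 genes stayed called higher for LPS and for LPS/5z7 against unstimulated cells in both genotypes under every alternative run, with these exceptions: Bst2 in B6 under the 3 settings given for LPS and the 8 given for LPS/5z7, and the fold minimum of 2, which left 38 (LPS) and 37 (LPS/5z7) in B6 and 38 (LPS/5z7) in T169A; no called value changed sign. The 5z7 counts did move. In B6, the 4 genes called lower with 5z7 became 0 with scaling by library size alone and with a fold of at least 2, and 13 with the groups compared alone. The 0 called higher became 1 (Trim21) with library size alone, with a filter of at least 1 CPM in 3 libraries and with the groups compared alone. Leaving out 1 library gave 0 to 2 called lower, with 0 without libraries 3, 6 or 8. In T169A, the 2 called lower became 1 with library size alone and 0 with the groups compared alone and with a fold of at least 2. They became 4 with DESeq2 and 7 without libraries 10, 11 and 12. Leaving out 1 library gave 0 to 9, with 9 without library 12. Over all genes, 1131 of 13068 were called lower with DESeq2, 582 of 13243 without libraries 10, 11 and 12, and 839 of 13330 without library 12. The 1 called higher became 0 with DESeq2 size factors, the groups compared alone and a fold of at least 2, and 0 to 1 with 1 library left out. Between genotypes, the 0 called lower became 1 (DESeq2) or 2 (without libraries 10, 11 and 12) unstimulated, 3 (without 10, 11 and 12) with LPS, and 1 (groups compared alone) or 4 (without 10, 11 and 12) with LPS/5z7. Over all genes, DESeq2 called 49 of 13068 lower unstimulated, and the LPS/5z7 groups compared alone gave 170 of 11966. Apart from the construction of each alternative, the cause was not tested.

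No block by the letter in the sample titles was possible because the columns carry none. Over all 13068 genes, a replicate block of consecutive running numbers called 1211 lower and 1236 higher with 5z7 in B6. In T169A it called 1174 lower and 1166 higher. Among the interferon-stimulated genes described here it called 11 lower and 1 higher (Trim21) in B6, and 10 lower and 1 higher (Trim21) in T169A. Rsad2 and Ifit1 were among those called lower in both genotypes (edgeR adjusted p for Rsad2 of 0.0044 in B6 libraries and 0.0095 for T169A, and for Ifit1 of 0.012 and 0.013). Libraries of such a set correlated at -0.0463 to 0.456 in their deviations (18 pairs), and libraries of other sets at -0.448 to 0.416 (36 pairs). Of 18 libraries, 12 correlated best with their own set. The running numbers also follow the group order of the titles, in which each letter spans all treatments, but no label ties a column to a letter. Depth limits the low genes most: Ifi44 and Isg20 had a few CPM unstimulated, against a floor of 0.0886 to 0.233 CPM.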
